A study of Mus musculus with 6 samples.

Results

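Expression of 8 genes of the Nodal pathway was examined among the 28584 genes measured by RNA-seq of mouse embryonic stem cells (mESCs). They were chosen by name as the ligands Nodal and Gdf3, the co-receptor Tdgf1, the receptor Acvr2b, the secreted inhibitors Lefty1, Lefty2 and Cer1 and the intracellular inhibitor Smad7, and all 8 were found in the table. The mESC line was derived from a C57BL/6 x 129S6 blastocyst and grown on mitomycin C-inactivated embryonic fibroblast feeders with serum and LIF (leukemia inhibitory factor) before the media were changed. The groups then differed by cytokine alone in a serum-based basic medium. LIF-ESCs received 1000 U/mL LIF, OSM-ESCs received 10 ng/mL OSM (oncostatin M, another cytokine that signals through gp130) and -LIF-ESCs received neither. RNA was taken at passage 10, with 2 libraries in each of the 3 groups. The study counts these passages from the change of medium, so the earlier passages in LIF are not included. All groups came from the same line, and whether feeders were still present after the change of medium is not given in the sources used here. The study calls the libraries biological replicates without saying that they were separate cultures, so the p-values measure the spread between these libraries only.

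Nodal is a secreted ligand of the TGF-beta family that acts through activin receptors and the co-receptor Cripto, the product of Tdgf1. Receptor activation leads to phosphorylation of Smad2 and Smad3, which enter the nucleus and, together with Foxh1, switch on target genes. Among these targets are the pathway's own inhibitors, Lefty1, Lefty2 and Cer1, so the pathway limits itself. In the mouse embryo Nodal signals keep the epiblast pluripotent and later induce mesoderm and endoderm. Mouse ESCs also express the ligand and its inhibitors.

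The deposited values are TPM, a unit that corrects reads for gene length and for the size of the library, so that levels of different genes can be compared. Reads recovered from TPM and exon length came to between 20712941 and 28994417 per library. Libraries of the same group were not copies of each other, since their chi-square averaged 2.03 to 3.49 over genes where sampling alone gives 1. Markers of embryonic stem cells were present in all libraries, with a summed level of 8 genes of 4840 to 4850 TPM in -LIF-ESCs, 6310 to 6360 TPM in LIF-ESCs and 5950 to 5970 TPM in OSM-ESCs. Fibroblast markers were also present. The summed level of 18 such genes was 56.0 to 61.6 TPM in -LIF-ESCs, 454 to 459 TPM in LIF-ESCs and 629 to 638 TPM in OSM-ESCs, and the sum was higher in every cytokine library than without cytokine. Fap, a fibroblast protease, was at 0 in both -LIF-ESC libraries. The 10 markers of the primitive streak and mesoderm summed to 109 to 112 TPM in -LIF-ESCs, 7.28 to 8.56 TPM in LIF-ESCs and 7.76 to 9.13 TPM in OSM-ESCs. In bulk RNA, fewer cells of a type and less RNA per cell cannot be told apart.

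The genes of the pathway did not move as a block. Against -LIF-ESCs, Lefty1, Gdf3 and Smad7 rose in both LIF-ESCs and OSM-ESCs, Tdgf1 rose by less than the fold limit, Cer1 fell, Acvr2b fell slightly, and Nodal and Lefty2 stayed within 10% of their mean TPM without cytokine. A gene was called where the adjusted p was under 0.05 and the log2 fold change reached 1 in either direction, the limits of the study's methods, here in limma on log2(TPM + 1), a scale that understates the change of genes at low levels. By this rule 4 of the 8 genes were called with LIF, 3 higher and 1 lower, where 21.4% of the 18556 genes tested were called, 13.3% higher and 8.09% lower. With OSM the count was also 4, 3 higher and 1 lower, against 22.0% of all genes, 14.2% higher and 7.86% lower. The 1 lower gene was Cer1, which passed the filter on low values only through the -LIF-ESC libraries and so could only come out lower. With no limit on the fold change, 7 of the 8 differed at an adjusted p under 0.05 with LIF and 6 with OSM, and so did 68.1% and 68.3% of all genes. With no fold limit, the share of the 8 genes is thus near that of all genes. The comparisons share the -LIF-ESC libraries. The median log2 fold change of the 8 genes was 0.51 with LIF and 0.38 with OSM, beside 0.165 and 0.182 over all genes tested, a shift that every change from -LIF-ESCs includes. With libraries rescaled to a common median ratio, 2 of the 8 genes were called in each comparison, Smad7 and Cer1, since the log2 fold changes of Lefty1 and Gdf3 then fell short of 1, beside 20.8% of all genes with LIF and 21.4% with OSM.

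**Figure D1:**
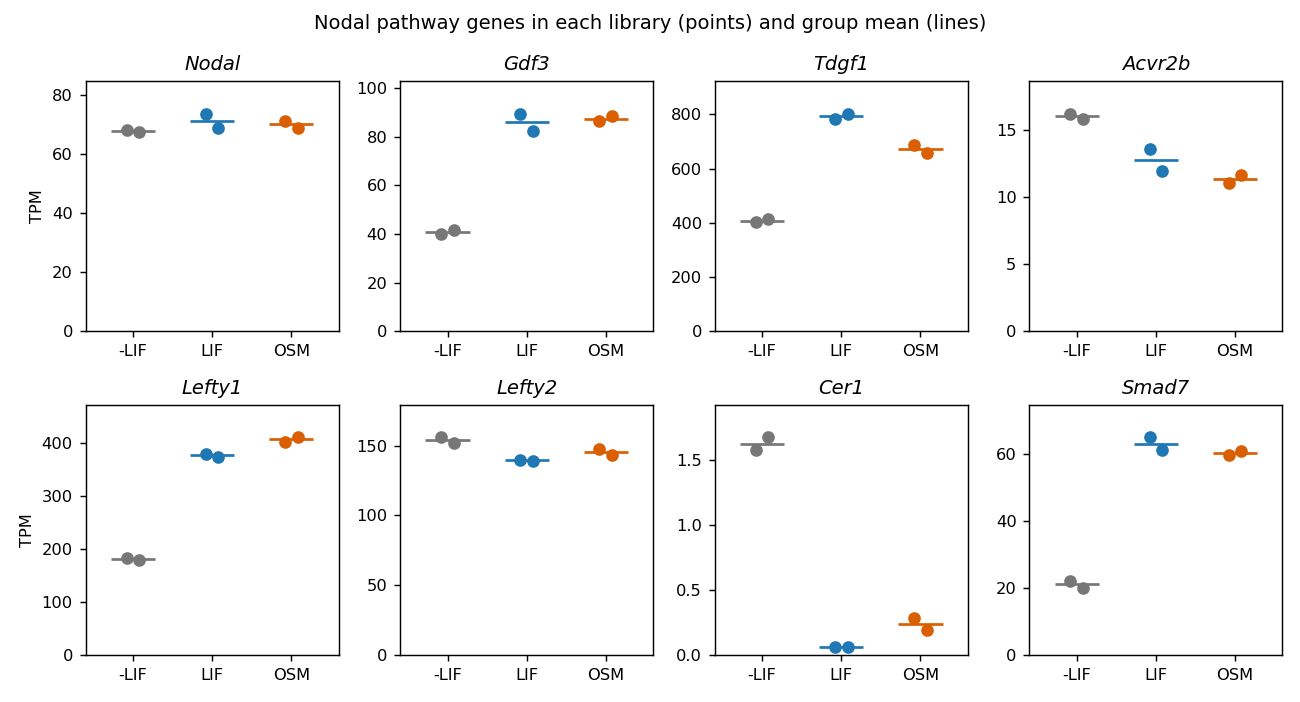
TPM of each of the 8 genes (vertical axes from 0, each with its own scale) in the 2 libraries of -LIF-ESCs, LIF-ESCs and OSM-ESCs, with points for libraries and lines for group means. Nodal lies between 67.6 and 73.7 TPM in all 6 libraries, whereas Lefty1, Gdf3, Tdgf1 and Smad7 are higher in every LIF-ESC and OSM-ESC library than in the -LIF-ESC libraries, and Cer1 and Acvr2b are lower.

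Of the ligands, Nodal (chromosome 10 of GRCm38, 61417972 to 61425338) was at 68.2 and 67.6 TPM in the -LIF-ESC libraries, 73.7 and 68.7 TPM in the LIF-ESC libraries and 71.2 and 69.0 TPM in the OSM-ESC libraries. The cytokine groups overlapped each other and lay just above -LIF-ESCs. Against -LIF-ESCs its log2 fold change was 0.07 with LIF (95% interval -0.05 to 0.18, adjusted p = 0.249 in limma) and 0.04 with OSM (-0.07 to 0.16, adjusted p = 0.429). After such rescaling the sign turned, to -0.10 (adjusted p = 0.0819) and -0.14 (adjusted p = 0.0344), so no direction can be given for Nodal. Gdf3 is a ligand related to Nodal that can also signal through the Cripto co-receptor and is a marker of pluripotent cells. Gdf3 (chromosome 6, 122605403 to 122610087) was at 40.1 and 41.5 TPM without cytokine, 89.5 and 82.4 TPM with LIF and 86.5 and 88.4 TPM with OSM. Both cytokine groups were well above -LIF-ESCs and overlapped each other. The log2 fold change of Gdf3 was 1.06 (SE 0.05, adjusted p = 4.05e-05 in limma) with LIF and 1.08 (SE 0.05, adjusted p = 3.65e-05) with OSM, and 0.89 and 0.90 after rescaling. Without LIF replicate 1 the change with LIF fell just short of the fold limit, so Gdf3 was not called. Of the ligands, Nodal was the higher without cytokine and Gdf3 the higher with either cytokine. The ratio of Gdf3 to Nodal TPM was 0.588 and 0.614 in the -LIF-ESC libraries, 1.21 and 1.20 in the LIF-ESC libraries and 1.22 and 1.28 in the OSM-ESC libraries, a ratio that does not depend on how a library is scaled.

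Tdgf1 had the highest level of the 8 genes in every library. Its product, Cripto, is the membrane-anchored co-receptor that Nodal and Gdf3 need to engage the activin receptors. Tdgf1 (chromosome 9, 110939603 to 110946158) was at 404 and 413 TPM without cytokine, 785 and 803 TPM with LIF and 688 and 656 TPM with OSM. The 3 groups did not overlap, with LIF-ESCs highest and -LIF-ESCs lowest. The log2 fold change against -LIF-ESCs was 0.96 (SE 0.04, adjusted p = 1.98e-05 in limma) with LIF and 0.72 (SE 0.04, adjusted p = 4.39e-05) with OSM. Of the 50-base stretches of the longest Tdgf1 coding transcript, 12.5% also occur in Tdgf1-ps1, a pseudogene copy, so reads could be exchanged between them. Tdgf1-ps1, which was looked up after the values of Tdgf1 were seen, was at 181 ± 6.22 TPM (SD, n = 2) without cytokine, 150 ± 13.0 with LIF and 129 ± 0.661 with OSM. The copy thus fell where Tdgf1 rose, with log2 fold changes of -0.28 (adjusted p = 0.0124 in limma) and -0.49 (adjusted p = 0.00137).

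The receptor gene Acvr2b encodes a type II receptor that binds activins and Nodal. Acvr2b (chromosome 9, 119402118 to 119434995) was at 16.2 and 15.8 TPM without cytokine, 13.6 and 11.9 TPM with LIF and 11.0 and 11.6 TPM with OSM. Both -LIF-ESC libraries were above the other 4 libraries. Acvr2b fell by 0.31 on the log2 scale with LIF (SE 0.08, adjusted p = 0.0174 in limma) and by 0.47 with OSM (SE 0.08, adjusted p = 0.00371), less than the fold limit in both. In LIF-ESCs the adjusted p was 0.0715 without -LIF replicate 1, 0.0512 without -LIF replicate 2 and 0.0692 without LIF replicate 2. The ratio of Tdgf1 to Acvr2b TPM was 24.9 and 26.2 in the -LIF-ESC libraries, 57.6 and 67.8 in the LIF-ESC libraries and 62.3 and 56.7 in the OSM-ESC libraries.

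Lefty1 and Lefty2, which encode secreted inhibitors that block Nodal and its co-receptor, are neighbours on chromosome 1 with 35918 bases between them, and of the pair Lefty1 alone was called. Their coding sequences are 91.8% identical over 1104 aligned bases, with a longest identical run of 140 bases, and 17.9% of the 50-base stretches of the Lefty1 transcript also occur in Lefty2. The handling of reads that match both genes is not given in the sources used here, so their levels carry this uncertainty. The stretch of 60 coding bases in exon 1 with the most differences between them, 18, is given from GENCODE M21 transcripts with the differing bases in capitals, since reads over such stretches can be assigned to one gene.
Lefty1, chr1:180935143-180935202, plus strand of GRCm38: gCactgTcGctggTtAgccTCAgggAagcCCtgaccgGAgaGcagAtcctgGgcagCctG
Lefty2, chr1:180893217-180893276, plus strand of GRCm38: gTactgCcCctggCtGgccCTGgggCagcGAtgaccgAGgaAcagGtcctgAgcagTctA

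Lefty1 (chromosome 1, 180935022 to 180938400) was at 183 and 179 TPM without cytokine, 380 and 374 TPM with LIF and 403 and 411 TPM with OSM. No groups overlapped, and both cytokine groups were far above -LIF-ESCs. Its log2 fold change was 1.05 (SE 0.03, adjusted p = 9.65e-06 in limma) with LIF and 1.16 (SE 0.03, adjusted p = 7.15e-06) with OSM, and 0.88 and 0.98 after rescaling. Lefty2 (chromosome 1, 180893108 to 180899103) was at 156 and 152 TPM without cytokine, 140 and 139 TPM with LIF and 148 and 143 TPM with OSM. Here the -LIF-ESC libraries were slightly above all the others. The log2 fold change of Lefty2 was -0.14 with LIF (SE 0.03, adjusted p = 0.0133 in limma) and -0.08 with OSM (SE 0.03, adjusted p = 0.0756), and -0.31 and -0.27 after rescaling, with adjusted p-values of 0.000395 and 0.000699. In LIF-ESCs the adjusted p of Lefty2 was 0.0767 without -LIF replicate 1, 0.0575 without LIF replicate 1 and 0.0660 without LIF replicate 2. Lefty1 and Lefty2 were thus at similar levels without cytokine, with a ratio of 1.17 in both libraries. The ratio was 2.71 and 2.68 in the LIF-ESC libraries and 2.73 and 2.86 in the OSM-ESC libraries. Summed over both genes, the Lefty level per Nodal was 4.98 and 4.89 without cytokine, 7.05 and 7.47 with LIF and 7.75 and 8.03 with OSM. The ratios are given without a test, as exact permutation of 2 and 2 libraries has 0.333 as its smallest two-sided p.

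**Figure D2:**
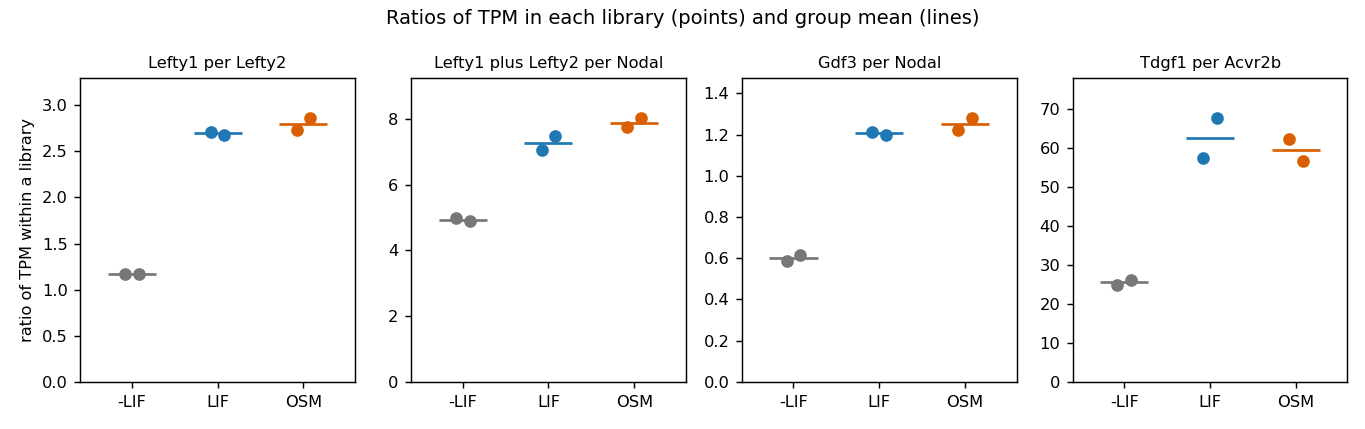
Ratios of TPM within each library (vertical axes from 0, no unit) in -LIF-ESCs, LIF-ESCs and OSM-ESCs, with points for libraries and lines for group means. The 4 ratios (Lefty1 to Lefty2, summed Lefty to Nodal, Gdf3 to Nodal and Tdgf1 to Acvr2b) are higher in all LIF-ESC and OSM-ESC libraries than in the -LIF-ESC libraries, for example 1.17 against 2.68 to 2.86 for Lefty1 to Lefty2.

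Cer1 encodes Cerberus, a secreted inhibitor that binds Nodal and is known from the anterior endoderm of the embryo. Cer1 (chromosome 4, 82881751 to 82885148) had the lowest level of the 8 genes, at 1.57 and 1.67 TPM without cytokine, 0.0613 and 0.0637 TPM with LIF and 0.285 and 0.190 TPM with OSM. These values rest on 31 and 27 reads without cytokine, 1 and 1 read with LIF and 5 and 4 reads with OSM. The groups did not overlap, but the LIF-ESC libraries were below the limit of 3 reads. The log2 fold change was -1.30 with LIF (SE 0.15, adjusted p = 0.000874 in limma) and -1.08 with OSM (SE 0.15, adjusted p = 0.00176), and with a pseudocount of 0.1 it was -3.40 and -2.37. Without either of the -LIF-ESC libraries Cer1 did not pass the filter and could not be tested. From the reads, Cer1 with LIF was at 0.0387 of its level without cytokine (95% interval 0.00457 to 0.146) and with OSM at 0.144 (0.0627 to 0.293), exact intervals that cover counting error only. The primitive and visceral endoderm markers, 10 genes, summed to 16.7 to 17.5 TPM without cytokine, 35.1 to 35.8 TPM with LIF and 29.1 to 29.4 TPM with OSM. This sum was higher with either cytokine, where Cer1 was lower. Of its defining genes Ttr was at 0 in both -LIF-ESC libraries and Afp in all 4 others, and Pdgfra is also among the fibroblast markers. The summed primitive streak and mesoderm markers given above were lower with either cytokine, as Cer1 was. The part of either cell type in the change of Cer1 was not tested.

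Smad7 encodes the inhibitory Smad that binds activated type I receptors and is induced by TGF-beta family signals. Smad7 (chromosome 18, 75367529 to 75395935) was at 22.2 and 19.9 TPM without cytokine, 65.0 and 61.1 TPM with LIF and 59.8 and 61.0 TPM with OSM. The cytokine groups were well apart from -LIF-ESCs and close to each other. Smad7 had the largest rise of the 8 genes, with a log2 fold change of 1.54 (SE 0.06, adjusted p = 2.6e-05 in limma) with LIF and 1.48 (SE 0.06, adjusted p = 2.83e-05) with OSM, and 1.37 and 1.30 after rescaling. Fibroblasts also express Smad7, and the summed fibroblast markers given above rose between the same groups. Their part in the rise of Smad7 was not tested.

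OSM-ESCs and LIF-ESCs were compared directly to ask whether the cytokines differ in this pathway. None of the 8 genes was called, where 0.0808% of all genes tested were (0.0323% higher and 0.0485% lower). Nor had any an adjusted p under 0.05 in limma, where 0.593% of all genes had (0.463% higher and 0.129% lower). At an unadjusted p under 0.05 in limma there were 2 of the 8, Tdgf1 and Lefty1, beside 15.3% of all genes. With limma's voom on the recovered reads, 1 of the 8, Tdgf1, had an adjusted p under 0.05, as had 8.09% of all genes. Tdgf1 was lower in all OSM-ESC libraries than in LIF-ESC libraries, with a log2 fold change of -0.24 (95% interval -0.33 to -0.15, adjusted p = 0.0699 in limma), and the adjusted p was 0.0494 after rescaling. Lefty1 had a log2 fold change of 0.11 (0.03 to 0.19, adjusted p = 0.204). The intervals of the other genes were -0.14 to 0.10 for Nodal, -0.10 to 0.16 for Gdf3, -0.03 to 0.14 for Lefty2, -0.22 to 0.10 for Smad7, -0.36 to 0.04 for Acvr2b and -0.17 to 0.60 for Cer1. For all 8 genes the interval on the log2(TPM + 1) scale thus lay within 1 in either direction. For Cer1 the ratio of reads, 9 with OSM and 2 with LIF, was 3.72 with a 95% interval from 0.771 to 35.4, so a difference was not detectable at this depth.

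**Figure D3:**
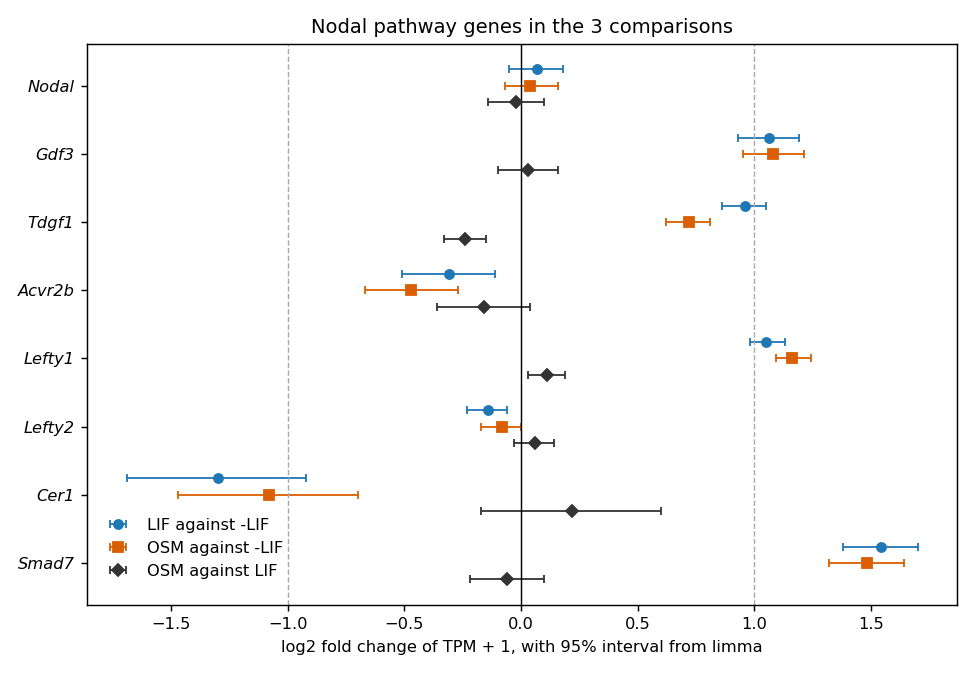
Log2 fold change of TPM + 1 (horizontal axis) for each of the 8 genes in the 3 comparisons, with points for the limma estimate, bars for its 95% interval and dashed lines at the fold limit of 1 in either direction. Smad7, Lefty1 and Gdf3 lie beyond 1 against -LIF-ESCs in both cytokine groups (after rescaling, Smad7 alone of these), Nodal lies at 0.07 and 0.04 with its sign turned by rescaling, and all 8 genes lie between -0.24 and 0.22 for OSM-ESCs against LIF-ESCs.

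Other genes of the pathway were taken from a list of 46 drawn up from general knowledge, of which 43 were tested. Cfc1 and Foxa2 were below the filter of 1 TPM in at least 2 libraries, and Acvr1c was not analysed here. Against -LIF-ESCs, 5 were called higher and 10 lower with LIF, where 13.3% of all genes were higher and 8.09% lower, and 5 and 10 with OSM, where 14.2% and 7.86% were. Of the 10 lower genes 5 passed the filter only through the -LIF-ESC libraries, and of the higher ones Inhba passed only through the cytokine libraries, so their direction was fixed by the filter. The median log2 fold change of the 43 was 0.14 with LIF and 0.16 with OSM, close to that of all genes. In the direct comparison of the cytokines, 0 of the 43 had an adjusted p under 0.05 in limma. After rescaling Inhba alone passed, with a log2 fold change of 0.53 (adjusted p = 0.0481 in limma). An unadjusted p under 0.05 was reached by 16, beside 15.3% of all genes. With voom 12 had an adjusted p under 0.05, 9 higher and 3 lower, beside 8.09% of all genes.

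The 7 other ligands included 3 called higher and 1 called lower with either cytokine. Over all genes tested, 13.3% were called higher and 8.09% lower with LIF, and 14.2% and 7.86% with OSM. Inhba, whose product forms activin A, was at 0.498 and 0.505 TPM without cytokine, 42.3 and 42.1 TPM with LIF and 65.6 and 58.3 TPM with OSM. It was low in both -LIF-ESC libraries, and with either cytokine it was below Nodal in every library. Its log2 fold change was 4.85 with LIF and 5.39 with OSM (adjusted p = 2.05e-06 and 1.55e-06 in limma). Inhba passed the filter on low values only through the cytokine libraries. It could thus only come out higher, and its call is no support for a direction. Inhbb, whose product forms activin B, rose by 3.22 and 3.23 on the log2 scale, from 1.37 ± 0.0932 TPM (SD, n = 2) to 21.2 ± 0.00894 with LIF and 21.3 ± 0.130 with OSM. Tgfb3 rose by 1.39 and 1.89. Tgfb2 fell from 24.6 TPM without cytokine to 1.44 TPM with LIF and 2.14 TPM with OSM (log2 fold changes -3.39 and -3.04). Inhba, Tgfb3 and Tgfbr2 are also expressed by fibroblasts, and the summed fibroblast markers moved between the same groups, also from LIF-ESCs to OSM-ESCs. The part of fibroblasts in these changes was not tested. Gdf1 and Tgfb1 were not called, with mean levels of 25.2 and 11.3 TPM without cytokine, 14.7 and 9.42 TPM with LIF and 19.0 and 12.0 TPM with OSM. Gdf1 fell within the fold limit, by log2 fold changes of -0.74 with LIF and -0.39 with OSM (adjusted p = 0.000669 and 0.00807 in limma). Those of Tgfb1 were -0.24 and 0.08 (adjusted p = 0.0285 and 0.377).

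Of the 4 other receptors tested, 1 was called, Tgfbr2, where 21.4% of all genes tested were called with LIF and 22.0% with OSM. Tgfbr2, the type II receptor for TGF-beta, rose by 1.30 with LIF and 1.65 with OSM on the log2 scale. The Nodal type I receptor Acvr1b rose within the fold limit, from 22.6 TPM without cytokine to 34.2 TPM with LIF and 28.9 TPM with OSM (log2 fold changes 0.58 and 0.35, adjusted p = 0.00058 and 0.00418 in limma). Tgfbr1, the type I receptor for TGF-beta, had log2 fold changes of 0.74 and 0.72. Of 9 processing and transducing genes 1 was called, Pcsk6, beside the same shares of all genes. Pcsk6, a convertase that cleaves the Nodal precursor, rose from 8.14 TPM to 26.0 TPM with LIF and 22.5 TPM with OSM (log2 fold changes 1.56 and 1.36). Foxh1, the partner of the Smads, was at 74.7 TPM without cytokine, 90.6 TPM with LIF and 96.3 TPM with OSM, a log2 fold change of 0.27 and 0.36, which after rescaling was 0.10 (adjusted p = 0.172 in limma) and 0.18 (adjusted p = 0.0431). Drap1, a repressor of Foxh1 activity, was at 102, 79.9 and 95.8 TPM in the same order.

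Of 14 other inhibitors 0 were called in either cytokine group, where 21.4% of all genes tested were called with LIF and 22.0% with OSM. At an adjusted p under 0.05 in limma, 7 were higher and 3 lower with LIF, and 9 were higher and 2 lower with OSM. Over all genes tested these shares were 42.2% and 25.9% with LIF and 42.9% and 25.4% with OSM. An unadjusted p under 0.05 in limma was reached by 11 of the 14 in each. Over all genes, 68.1% with LIF and 68.3% with OSM passed the adjusted limit, so the unadjusted share is at least as high. With voom on recovered reads, 5 were higher and 4 lower with LIF, and 6 and 4 with OSM, at an adjusted p under 0.05, where 70.2% and 71.4% of all genes passed in either direction, and 1 was called, Fstl3 with OSM. Fstl3, a secreted activin-binding protein picked here with its values known, was at 2.78 and 3.38 TPM without cytokine, 4.97 and 4.26 TPM with LIF and 6.72 and 7.28 TPM with OSM. The most highly expressed were Tgif1, a homeobox repressor of Smad targets, with log2 fold changes of 0.48 and 0.38, and Ski, a Smad co-repressor, with 0.70 and 0.77. Of the 9 mesendoderm targets tested, Gsc, Mixl1, Lhx1, Fgf8 and Wnt3 reached 1 TPM in the -LIF-ESC libraries alone, so these 5 could only come out lower and their calls are no support for a direction. Eomes, T and Otx2 passed the filter from the cytokine libraries as well, and these 3 were called lower with either cytokine, where 8.09% and 7.86% of all genes were. T passed narrowly, at 1.05 TPM in LIF replicate 2 and 1.03 TPM in OSM replicate 2. It was at 0.506 TPM in LIF replicate 1 and 0.812 TPM in OSM replicate 1. Fgf8, a growth factor of the primitive streak, was at 75.0 and 76.3 TPM without cytokine, 0.395 and 0.493 TPM with LIF and 0.807 and 0.733 TPM with OSM, so that the groups were far apart. Its log2 fold change was -5.73 and -5.44 (adjusted p = 2.05e-06 and 2.12e-06 in limma). The log2 fold changes of T, the gene of Brachyury, were -5.13 and -5.01, those of Wnt3, a signal of the streak, -3.82 and -3.63, and those of Lhx1, a homeobox factor, -2.27 and -2.31. Nodal lay between 67.6 and 73.7 TPM in the same 6 libraries. The target genes are also regulated by other signals and overlap with the primitive streak markers given above.

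**Figure D4:**
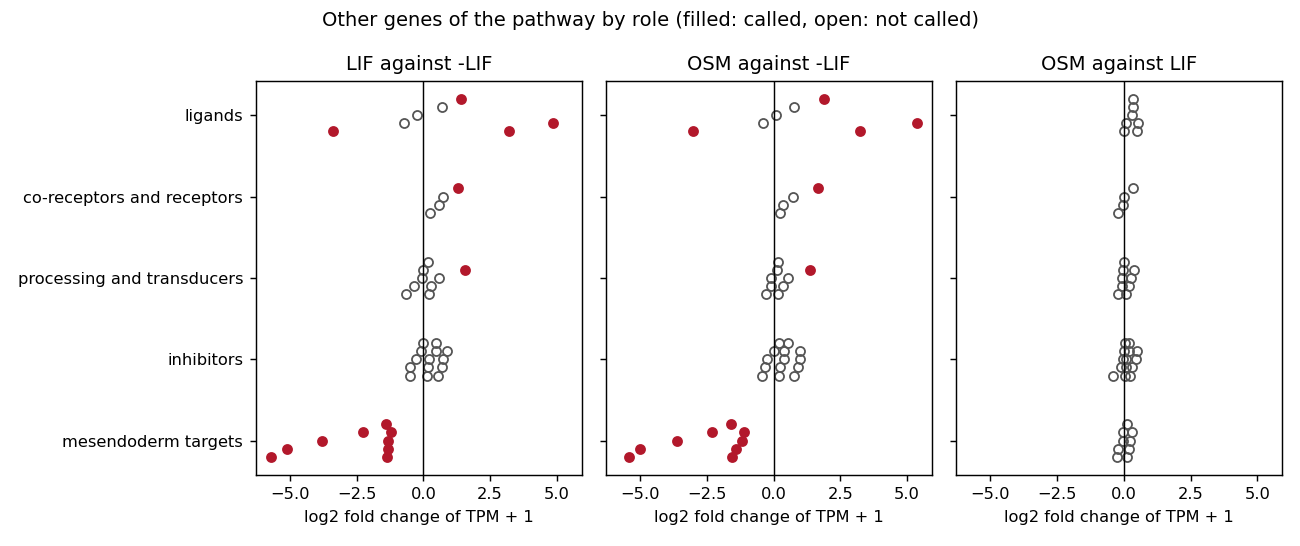
Log2 fold change of TPM + 1 (horizontal axes) for the 43 other pathway genes tested, by role, in the 3 comparisons; each point is a gene, filled where called and open where not. The 9 mesendoderm targets lie below -1 with either cytokine against -LIF-ESCs, a direction that the filter on low values fixed for 5 of them, the inhibitors lie between -0.51 and 0.99 in these comparisons, and no gene is called between OSM-ESCs and LIF-ESCs.

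For each of the 8 genes, the genes most like it in pattern were sought among 8021 genes with a mean of at least 10 TPM, by the smallest root mean square difference of centred log2(TPM + 1) over the 6 libraries. Osgep, Trim41 and Rfc1 were nearest to Nodal (0.0127 to 0.0136), Psmd13, Pard3 and Zcchc14 to Lefty2 (0.00955 to 0.0168), and Cyb5r1, Brpf3 and Col4a2 to Lefty1 (0.0251 to 0.0270). Nearest to Gdf3 were Cd3eap, Pou5f1 and Cyb5r1 (0.0243 to 0.0322). Pou5f1, the gene of the pluripotency factor Oct4, was at 545 TPM without cytokine, 1160 TPM with LIF and 1190 TPM with OSM. Dennd2c, Gcnt2 and Csad were nearest to Tdgf1 (0.0367 to 0.0425), Marveld1, Plk3 and Mib2 to Smad7 (0.0318 to 0.0441), Sorl1, Dym and Katna1 to Acvr2b (0.0356 to 0.0385) and Unc5b, Atox1 and Hunk to Cer1 (0.0353 to 0.0450). With 3 groups of 2 libraries, such a likeness describes these libraries only.

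Promoter sequences of GRCm38.p6 from RefSeq were found for 4 of the 8 genes, Nodal, Tdgf1, Acvr2b and Cer1. The 250 bases before the start site are given for Nodal, whose level barely moved, and for its co-receptor Tdgf1, which moved, with the Smad-binding motif in capitals where it occurs.
Nodal, chr10:61417722-61417971, plus strand: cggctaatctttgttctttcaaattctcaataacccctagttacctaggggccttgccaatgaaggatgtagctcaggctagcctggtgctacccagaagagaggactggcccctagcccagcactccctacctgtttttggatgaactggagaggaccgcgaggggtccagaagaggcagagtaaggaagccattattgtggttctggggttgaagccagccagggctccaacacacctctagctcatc
Tdgf1, chr9:110946159-110946408, minus strand: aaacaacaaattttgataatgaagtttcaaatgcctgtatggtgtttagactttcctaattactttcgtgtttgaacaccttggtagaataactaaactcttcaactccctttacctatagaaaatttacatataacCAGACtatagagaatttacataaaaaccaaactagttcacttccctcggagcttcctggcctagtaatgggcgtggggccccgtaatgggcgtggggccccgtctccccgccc
The letters searched on both strands were CAGAC for the Smad-binding motif and AATNCACA for the Foxh1 motif, which do not overlap in these windows. CAGAC occurred once in the window of Tdgf1, from 113 to 109 bases before the start, once in that of Cer1 (213 to 209) and once, on the other strand, in that of Acvr2b (233 to 229), and was not in that of Nodal. It is a short motif, present in 42.2% of 32851 promoter windows of this length, and any link to the levels was not tested. Acvr2b and Cer1, which also hold it, were lower with either cytokine, whereas Tdgf1 was higher. AATNCACA was in 3.18% of all the promoter windows and in none of the 4.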

How the data were processed

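RNA of mESCs at passage 10 was sequenced by the authors from poly(A) libraries, 2 in each of 3 groups. Per the labels, reads were processed with Trimmomatic, HISAT2, featureCounts and the mm10 build, and the authors deposited 1 table of TPM values per gene and library. The annotation, the strand setting and the step from counts to TPM are not given in the sources used here. The deposited columns sum to between 999949.5 and 999966.0 TPM.

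For 28405 symbols (99.4%) an exon length was taken from GENCODE M21, built on GRCm38. Of the matched values above 0, 94.6% were a whole number of reads within 0.02. A gene was tested if 2 or more libraries reached 1 TPM, which held for 18556 genes. Their log2(TPM + 1) values entered limma 3.58.1 (R 4.3.3, lmFit, then eBayes with trend) in 1 fit of all groups with 3 residual degrees of freedom. Benjamini-Hochberg adjustment ran over all 18556. The study tested counts with DESeq2, which was not repeated on TPM. Alternatives changed the pseudocount to 0.1, dropped the filter or raised it to 5 TPM, dropped the trend, fitted only the groups at issue, added a block for replicate number, rescaled libraries by their median ratio, ran voom on recovered reads, dropped the limit on fold change, or left out each library in turn. The steps were tested on simulated data.

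The members and lists were chosen with earlier results of these data known, and the lists came from general knowledge. Of the other pathway genes, the text names for each role and comparison up to 4 called genes with the largest log2 fold change and up to 2 uncalled genes with the highest TPM, and for each member the 3 genes most like it. The values of 1 listed target are not reported here. Marker lists not given in the report were those of primed epiblast, which summed to 250 to 251 TPM without cytokine, 192 to 193 TPM with LIF and 217 to 221 TPM with OSM, and of trophoblast, with 85.7 to 87.8, 27.2 to 28.3 and 29.9 to 30.6 TPM. Python 3.11.15, pandas 2.3.3, scipy 1.17.1, Biopython 1.88 and matplotlib 3.10.9 were used for tables, alignments and plots.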

Additional observations from a re-analysis of the deposited data

Results flagged for a closer look

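In the direct comparison of the cytokines, 3 of the 17 fibroblast markers tested passed an adjusted p of 0.05 in limma, all 3 higher with OSM, and the other 14 did not pass. Over all genes 0.593% passed, 0.463% higher with OSM. None of the 8 Nodal pathway genes passed this limit.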

How the results depend on the processing

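Rescaling by the median ratio and voom on recovered reads each lowered the called genes among the 8 from 4 to 2 in LIF-ESCs and from 4 to 2 in OSM-ESCs. With no limit on the fold change 7 of the 8 passed in LIF-ESCs, and 35 and 34 of the other pathway genes passed in LIF-ESCs and OSM-ESCs, against 15 in each. The sign of Nodal turned to -0.10 and -0.12 in LIF-ESCs and to -0.14 and -0.16 in OSM-ESCs after rescaling and with voom. Between OSM-ESCs and LIF-ESCs, leaving out a library moved Nodal between -0.07 and 0.03 and Gdf3 between -0.03 and 0.08. Without a -LIF-ESC library Cer1 no longer passed the filter, which left 3 called genes of the 8, and the called pathway genes fell from 15 to 10 with LIF without either -LIF-ESC library, and with OSM to 10 without -LIF replicate 1 and 12 without -LIF replicate 2. Leaving out a LIF-ESC or OSM-ESC library gave 15 with LIF and 15 to 17 with OSM. In such fits the lone library is assumed to vary like the other groups. Without a -LIF-ESC library Gsc, Mixl1, Lhx1, Fgf8 and Wnt3 also missed the filter and were not tested. Their loss from the called pathway genes was thus fixed in advance. Of 327 alternatives for the log2 fold changes of single genes, 6 changed sign. Of those that kept their sign, 310 kept their side of an adjusted p of 0.05, 7 no longer passed it and 4 newly passed it. Among the 6, Nodal in OSM-ESCs against -LIF-ESCs also passed, after rescaling (adjusted p = 0.0344 in limma) and with voom (adjusted p = 0.0118).

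Deviations of same-numbered libraries had correlations of -0.0433 to 0.0265, so no shared shift across genes was seen. Whether same-numbered libraries were grown or prepared together is not given in the sources used here. With a replicate block 4 of the 8 genes were called in LIF-ESCs, 4 in OSM-ESCs and 0 between them, and 15, 15 and 0 of the other pathway genes, as without it. Depth limits Cer1, which had 1 read in each LIF-ESC library.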
